A study of Mus musculus with 5 samples.

Results

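Interferon-stimulated genes were followed in mouse lung single-cell data as a list of 41 gene symbols, chosen as known targets of interferon with earlier results of these data known. Of these, 40 were among the 31053 genes measured, and Mx2 was not analysed here. The study examined lung repair after lipopolysaccharide (LPS), a bacterial cell wall component that injures the alveolus, in mice lacking β1 integrin (Itgb1) in type 2 alveolar epithelial (AT2) cells. Each of the 5 groups was 1 library of cells pooled from several mice. In each, 3 hashtag antibodies were in use, and each hashtag was taken here as 1 mouse. At day 7 there were LPS-treated β1 fl/fl mice (Itgb1 fl/fl in the labels), LPS-treated β1 AT2-KO mice (Itgb1 iKO) and β1 AT2-KO mice given PBS, and at day 21 there were LPS-treated β1 fl/fl and LPS-treated β1 AT2-KO mice. All mice were adult, carried floxed Itgb1 and had received doxycycline before injury. The β1 AT2-KO mice also carried an SP-C-driven rtTA and a Tet-O-Cre, which limit deletion to cells that made surfactant protein C, and their β1 fl/fl littermates did not. Cells were sorted as viable CD45- Ter119-, without leukocytes and red cells, and at day 21 EPCAM-positive cells were added, so day and enrichment cannot be told apart.

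Interferons are cytokines released on sensing of microbes. Type I and type III interferons act on the interferon-stimulated response element in the promoters of their target genes, and interferon-γ acts on the gamma-activated site. These genes block viral entry and replication, present antigen and attract T cells, and in the lung they are used by epithelium, endothelium and stroma alike.

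The promoters of the members show these elements as letters. RefSeq promoters (GRCm38.p6) were matched for 30 members, and the 250 bases before each start were searched on both strands. The core of the interferon-stimulated response element, GAAA and GAAA parted by any 2 bases, was present in 15 of the 30 and in 3.04% of all 27025 promoters. The gamma-activated site, TTCNNNGAA, was present in 7 of the 30 (23.3%) and in 7.18% of all promoters. A match is a description and not a bound site. The promoters below belong to genes whose levels are given in every mouse, and capitals mark the matched motifs: Isg15 (chr4:156200819-156201068, minus strand), Ifit3 (chr19:34583279-34583528, plus strand) and Gbp2 (chr3:142620413-142620662, plus strand) hold the first motif, and Irf1 (chr11:53769764-53770013, plus strand) holds the second alone.
Isg15: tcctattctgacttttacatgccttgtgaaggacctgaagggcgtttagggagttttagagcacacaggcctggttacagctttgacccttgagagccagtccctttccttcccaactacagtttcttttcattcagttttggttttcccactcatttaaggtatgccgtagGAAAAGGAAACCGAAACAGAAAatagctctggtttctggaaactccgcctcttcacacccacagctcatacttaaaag
Ifit3: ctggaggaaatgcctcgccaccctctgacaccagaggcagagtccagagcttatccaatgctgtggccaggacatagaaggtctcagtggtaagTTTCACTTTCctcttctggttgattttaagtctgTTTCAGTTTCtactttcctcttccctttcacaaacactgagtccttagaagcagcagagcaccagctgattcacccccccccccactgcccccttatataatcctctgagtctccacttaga
Gbp2: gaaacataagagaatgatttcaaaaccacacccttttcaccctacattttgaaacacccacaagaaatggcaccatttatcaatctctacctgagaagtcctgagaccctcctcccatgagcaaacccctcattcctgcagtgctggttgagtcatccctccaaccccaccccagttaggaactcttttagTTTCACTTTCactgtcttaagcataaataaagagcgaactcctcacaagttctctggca
Irf1: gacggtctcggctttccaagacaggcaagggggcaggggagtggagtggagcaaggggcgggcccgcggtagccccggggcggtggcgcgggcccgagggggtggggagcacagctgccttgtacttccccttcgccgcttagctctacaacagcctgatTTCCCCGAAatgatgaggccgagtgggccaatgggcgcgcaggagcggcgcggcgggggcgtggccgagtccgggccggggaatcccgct
Isg15 held 3 overlapping copies of the first motif, Ifit3 held 2 and Gbp2 held 1. Some members are neighbours with related sequences, and reads could be split between such copies: Ifit2, Ifit3 and Ifit1 span chr19:34550694-34650009, and Ly6e, Ly6i and Ly6a span chr15:74955051-74998031 (GRCm38). Psmb9 and Tap1 overlap at their starts within chr17:34181987-34201454, which also holds Psmb8.

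Levels are unique molecular identifiers (UMIs) of a gene scaled to 1e+06 UMIs of the class (CPM), summed per mouse. AT2, endothelial and mesenchymal cells were chosen by Sftpc, Epcam, Cdh5, Pecam1 and Col1a2, none of which is a member, giving 26 to 1240, 879 to 7976 and 103 to 553 cells per library. Their median depth was 7497 to 11131, 1963 to 2444 and 3044 to 4585 UMIs per cell. The 8 endothelial markers stood in AT2 cells at 0.889% to 2.55% of their endothelial level at most, and 10 immune markers summed to 3.34 to 17.3 CPM in any class and library. Itgb1 in AT2 cells was 281 CPM in β1 fl/fl and 169 CPM in β1 AT2-KO at day 7 after LPS, and 357 and 154 CPM at day 21. Group and library cannot be told apart, and p-values measure the spread between mice of 1 library. At day 7 after LPS all β1 fl/fl mice were Xist-positive and all β1 AT2-KO mice carried Y-linked transcripts, so genotype and sex cannot be told apart there. At day 21 Xist prevailed in β1 fl/fl mice 2 and 3 (250 and 215 CPM) and in β1 AT2-KO mouse 1 (147 CPM). Y-linked UMIs prevailed in β1 AT2-KO mice 2 and 3 (78.1 and 108 CPM), so genotype and sex are partly tied there too. Mouse 1 of the day 21 β1 fl/fl library held both, with Xist at 93.5 CPM beside a summed Y-linked level of 84.1 CPM. That hashtag may hold more than 1 mouse but entered the tests as 1 mouse. Libraries shared 0.692% to 1.69% of the barcodes of the smaller one. In summed counts, fewer cells using a gene and less RNA per cell cannot be told apart.

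Among the 3 classes compared, most members were highest in endothelium. Leukocytes had been sorted out and epithelium other than AT2 cells was not compared. The question here was which class carries them, tested in LPS-treated mice with the mouse as a block (edgeR quasi-likelihood test, Benjamini-Hochberg adjusted p under 0.05). Of the 39 members in the fit, 34 were called higher in endothelium than in AT2 cells and 2 lower, beside 37.4% and 31.5% of all 10556 genes. Their median log2 difference was 2.71 against 0.14 over all genes. Against AT2 cells, mesenchyme was higher for 20 members and lower for 3, beside 27.1% and 26.1% of all genes, with a median of 1.30 against 0.01. Against endothelium, mesenchyme was higher for 6 members and lower for 31, beside 23.9% and 26.1% of all genes, with a median of -1.45 against -0.10. In these comparisons 10, 11 and 5 members had a group without a UMI in 1 of the classes, where a fitted difference depends on the prior count, and over the other 29, 28 and 34 members the medians were 2.44, 1.09 and -1.25. Where such groups left no usable standard error no test could be had, as for Cxcl9 between endothelium and AT2 cells and for Rsad2, Oas1a and Ifi44 between mesenchyme and AT2 cells. Medians and ranges over mice, here and below, used 15 endothelial, 12 AT2 and 11 mesenchymal sums, and PBS mice entered in endothelium alone. By the median over mice, 32 of the 40 members had their highest level in endothelium, 6 in mesenchyme and 1, Ly6i, in AT2 cells, while Mx1 had a median of 0 in every class.

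**Figure D1:**
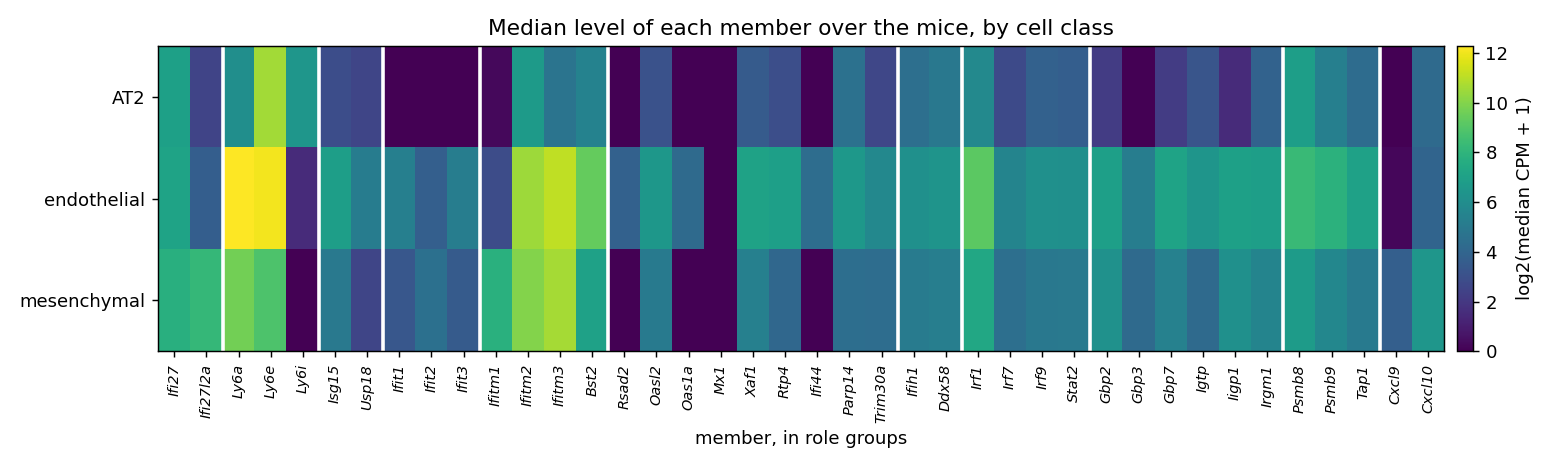
Median level of the 40 members over mice with at least 10 cells of a class, on a log2(median CPM + 1) colour scale, by cell class and in role groups parted by white lines. Endothelium holds the highest median for 32 members, and Ifi27l2a, Ifitm1 and Cxcl10 are among the 6 that are highest in mesenchyme.

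The Ly6 genes, which encode small surface proteins, split by class. Ly6a (Sca-1) ranged over 3542 to 8168 CPM in endothelium, 194 to 1523 CPM in mesenchyme and 29.1 to 106 CPM in AT2 cells, and the endothelial difference from AT2 cells was large (log2 5.64, SE 0.21, edgeR adjusted p = 4.79e-26). In AT2 cells Ly6a stood at 0.695% to 2.09% of its endothelial level, above the highest endothelial marker in 1 of 5 libraries, and the part of RNA from other cells was not tested. Ly6e was abundant in every class, at 3445 to 4658 CPM in endothelium, 1075 to 1835 CPM in AT2 cells and 308 to 647 CPM in mesenchyme. The 3 ranges of Ly6e did not overlap, and it was lower in mesenchyme than in AT2 cells (log2 -2.20, SE 0.11, edgeR adjusted p = 2.25e-21). Ly6i ran the other way, at 22.2 to 224 CPM in AT2 cells and 0 to 18.2 CPM in endothelium (log2 -5.46, SE 0.24, edgeR adjusted p = 5.01e-21), and none of the 11 mesenchymal sums held a UMI of it.

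In the ISG12 family, whose small proteins sit in intracellular membranes, both genes were highest in mesenchyme. Ifi27l2a had a median over mice of 290.1 CPM there against 11.8 CPM in endothelium (log2 3.73, SE 0.46, edgeR adjusted p = 3.83e-09). Ifi27 varied little between classes, with medians of 124, 140.0 and 211 CPM in AT2, endothelial and mesenchymal cells, and was slightly lower in endothelium than in AT2 cells (log2 -0.33, SE 0.10, edgeR adjusted p = 0.00251).

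The membrane restriction genes encode IFITM proteins and tetherin (Bst2), which block virus entry and release, and all 4 were higher in both endothelium and mesenchyme than in AT2 cells. Ifitm3 ranged over 1754 to 3463 CPM in endothelium, 1343 to 2526 CPM in mesenchyme and 16.7 to 109.5 CPM in AT2 cells. The AT2 range lay wholly below both others (log2 5.25, SE 0.17, edgeR adjusted p = 2.70e-28 for endothelium against AT2 cells). Ifitm1 was a mesenchymal transcript, at 115 to 378 CPM there and 1.82 to 10.5 CPM in endothelium, with no overlap (log2 5.18, SE 0.23, edgeR adjusted p = 3.58e-22).

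The ISG15 system, the IFIT genes and the antiviral effectors modify proteins or bind and degrade viral RNA. The 2 ISG15 genes, the 3 IFIT genes and the 8 effectors tested were all higher in endothelium than in AT2 cells. Against endothelium, mesenchyme was lower for the 2 ISG15 genes and the 8 effectors, whereas of the IFIT genes 1 was lower and 1 higher. Isg15, a ubiquitin-like modifier, ranged over 89.0 to 388 CPM in endothelium against 0 to 71.4 CPM in AT2 cells (log2 3.44, SE 0.31, edgeR adjusted p = 3.22e-13). Pooled over the LPS-treated mice, Oas1a, which activates RNase L, was at 16.7 against 2.25 CPM in endothelium and AT2 cells, Ifi44 at 21.3 against 0.809 CPM and Rsad2 (viperin) at 15.4 against 0.989 CPM. Ifit3 was undetected in the AT2 cells of 8 of 12 mice and ranged over 16.2 to 149 CPM in endothelium. Pooled over the LPS-treated mice, Ifit3 was at 35.4 CPM in endothelium and 30.7 CPM in mesenchyme, and it was not called between these 2 classes. Ifit2 differed from its neighbours and was higher in mesenchyme than in endothelium (log2 1.03, SE 0.37, edgeR adjusted p = 0.0190). That call was lost without mouse 2 of the day 7 β1 fl/fl, mouse 1 of the day 21 β1 fl/fl or mouse 1 or 2 of the day 21 β1 AT2-KO library, at 0.78, 0.90, 1.07 and 0.87 on the log2 scale.

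The regulators and the GTPases tested were also all higher in endothelium than in AT2 cells. The RNA sensors Ifih1 (MDA5) and Ddx58 (RIG-I) differed by 1.18 and 0.93 on the log2 scale. The 4 transcription factors had a median log2 difference of 2.07, with Irf7, the amplifier of type I interferon, at a median of 45.4 CPM in endothelium, 21.5 CPM in mesenchyme and 5.73 CPM in AT2 cells. The 6 immunity-related and guanylate-binding GTPases, which attack intracellular pathogens, were all called higher, with Gbp3 at a pooled 41.7 against 1.17 CPM. Gbp2 ranged over 85.1 to 202 CPM in endothelium and 0 to 9.81 CPM in AT2 cells, which did not overlap.

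The 3 antigen processing genes were higher in endothelium than in AT2 cells as well, with a median log2 difference of 2.05, whereas Cxcl10 was not called and Cxcl9 could not be tested. Psmb8, an immunoproteasome subunit, was well represented in AT2 cells, at 58.8 to 179 CPM beside 272 to 386 CPM in endothelium, and was lower in mesenchyme than in AT2 cells (log2 -0.68, SE 0.16, edgeR adjusted p = 5.20e-04). The chemokines Cxcl9 and Cxcl10, which attract T cells, were both higher in mesenchyme than in endothelium (log2 2.74 for Cxcl10, and a pooled 24.9 against 3.68 CPM for Cxcl9). Without mouse 2 of the day 21 β1 AT2-KO library the Cxcl10 test could not be made, since the mesenchyme left in that group held no UMI of it, and DESeq2 did not call Cxcl9. Mx1 was near the detection limit everywhere and was not tested. Of the 36 tested pathway genes outside the list, such as receptors, kinases and class I molecules, 27 were higher in endothelium than in AT2 cells and 7 were lower, among them Jak2 at -1.05 on the log2 scale.

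LPS-treated and PBS-treated β1 AT2-KO mice were compared at day 7 to ask what the injury left behind, and endothelium alone met the minimum of 10 cells per mouse, since each PBS mouse had 2 to 9 AT2 and 2 to 7 mesenchymal cells. With every mouse taken in regardless, edgeR called 0 of 15 members in AT2 cells, with 2 at an unadjusted p under 0.05, and 1 of 17 in mesenchyme, which was higher. The share over all genes in this setting is not given, so these counts cannot be read against a background. In endothelium 13 of 39 members were lower after LPS, beside 11.8% of all 11740 genes, and 3 were higher, beside 14.2%. Among the higher ones, Ly6i entered the test only through LPS-treated mice. The members' median log2 fold change was -0.21 against 0.02 over all genes. All 4 transcription factors were lower, as were Ly6a and the GTPases Igtp and Irgm1. The test called 0 of 3 antigen processing genes and 0 of 2 chemokines, whose median log2 fold changes were 0.02 and 1.65. Cxcl10 was called without LPS mouse 1 and without LPS mouse 2. Both chemokines were called without PBS mouse 2 and with no filter on low counts.

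Irf1, a factor downstream of interferon-γ, was at 1075, 1039 and 849.8 CPM in the PBS mice and 499.7, 617 and 469 CPM in the LPS mice. The groups did not overlap (log2 -1.01, SE 0.19, edgeR adjusted p = 4.92e-04). Irf7 was at 118, 72.8 and 63.3 CPM with PBS and 42.3, 45.4 and 39.6 CPM with LPS, again without overlap (log2 -1.11, SE 0.22, edgeR adjusted p = 9.98e-04). Ly6a was at 5849, 8168 and 6351 CPM with PBS and 4656, 3542 and 4118 CPM with LPS (log2 -0.83, SE 0.13, edgeR adjusted p = 8.15e-05). Igtp, an immunity-related GTPase, was at 95.6, 119.9 and 86.7 CPM with PBS and 60.3, 39.2 and 77.0 CPM with LPS (log2 -0.89, SE 0.22, edgeR adjusted p = 0.00616). Neither gene overlapped between the groups. These 4, with Irf9 (-0.71), Stat2 (-0.70) and Irgm1 (-0.72), kept their calls in all 13 alternative settings.

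The other lower calls depended more on single mice. Isg15 was at 237, 152 and 107 CPM with PBS and 89.0, 106 and 117 CPM with LPS, so that 1 of the 3 PBS mice lay within the LPS range (log2 -0.78, SE 0.27, edgeR adjusted p = 0.0411). Ifit1, which binds viral RNA, was at 141, 59.8 and 41.6 CPM with PBS and 26.2, 51.3 and 35.5 CPM with LPS, also overlapping (log2 -1.22, SE 0.40, edgeR adjusted p = 0.0293). PBS mouse 1 was the highest for both, and without it Isg15 was at -0.42 (edgeR adjusted p = 0.242), Ifit1 at -0.52 (edgeR adjusted p = 0.282), and the count of lower members was 7. That count was 8 without LPS mouse 2 and 8 without LPS mouse 3. Isg15 was also lost without any 1 of the LPS mice or without PBS mouse 2, and Ifit1 without LPS mouse 1 or 3. PBS mouse 1 was the only one of the 6 with more Xist than Y-linked UMIs. Bst2, Oasl2, Rtp4 and Ifih1 completed the lower calls, at -0.29, -0.52, -0.61 and -0.35 on the log2 scale, and each lost its call without PBS mouse 1, without LPS mouse 1 and without LPS mouse 2. Oasl2, Rtp4 and Ifih1 were also lost without LPS mouse 3, and Ifih1 without PBS mouse 2. DESeq2 called 8 members lower and the same 3 higher. Ifit3 (-0.64), Ly6e (-0.21), Ifitm3 (-0.23), Gbp2 (-0.08) and Psmb8 (0.04) did not pass the test.

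Of the 3 higher members, Ifi27l2a was at 10.4, 5.58 and 2.96 CPM with PBS and 11.5, 9.80 and 32.4 CPM with LPS, overlapping (log2 1.34, SE 0.43, edgeR adjusted p = 0.0268). Ifit2 was at 9.14, 7.98 and 6.51 CPM with PBS and 16.4, 9.80 and 15.5 CPM with LPS, without overlap (log2 0.70, SE 0.23, edgeR adjusted p = 0.0300). Ly6i, at 0.816, 0.598 and 0.789 CPM and 2.73, 3.10 and 1.94 CPM, rested on 13 and 39 UMIs in the whole libraries (log2 1.65, SE 0.58, edgeR adjusted p = 0.0426). Ly6i passed the filter on low counts only through LPS-treated β1 AT2-KO mice of both days, the side where it was high. Its call is therefore given as a value and not as support for a change. AT2 markers, at a median of 0.272% of their AT2 level in PBS endothelium and 2.10% in LPS endothelium, moved with Ly6i, which is highest in AT2 cells, and their part in the result was not tested. Without PBS mouse 2, and likewise without PBS mouse 3, none of the 3 kept its call. Ifi27l2a was also lost without LPS mouse 3, Ifit2 without LPS mouse 1 or 3, and Ly6i without LPS mouse 1 or 2 or PBS mouse 1. The count of higher members was then 1 without LPS mouse 3 and 0 without PBS mouse 3. Of 38 pathway genes tested outside the list 4 were higher, namely Irf8 (1.62), Tmem173 (STING, 1.48), Jak2 (0.47) and Ifngr1 (0.32), and 8 were lower, among them the feedback inhibitors Socs1 (-0.70) and Socs3 (-0.55).

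**Figure D2:**
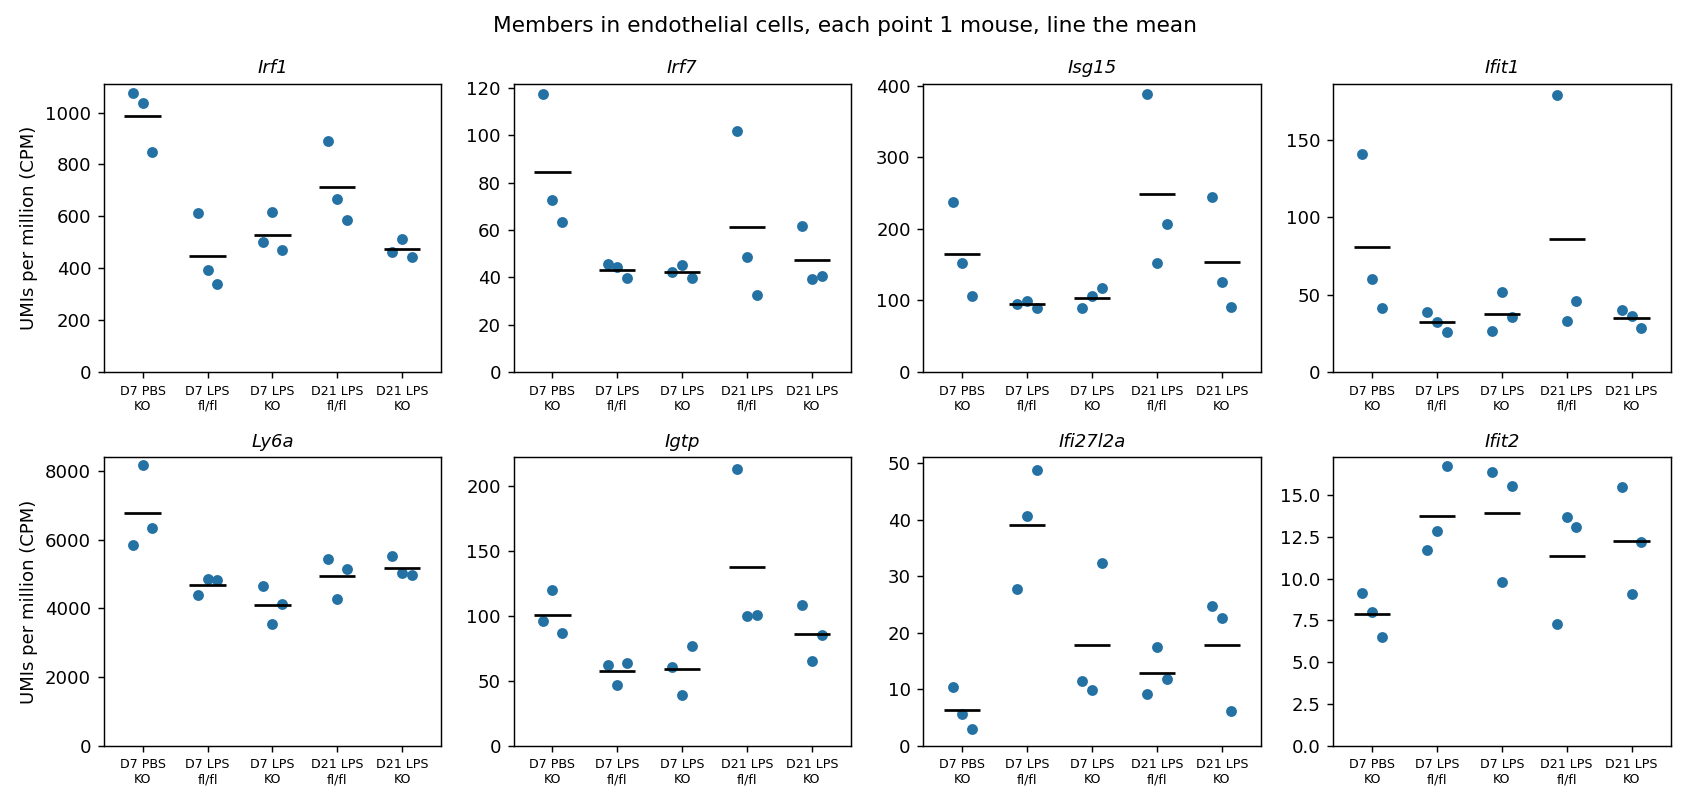
Level of 8 members in endothelial cells (CPM, linear axes from 0), with 1 point per mouse and a line at the mean of each of the 5 groups. Irf1, Irf7, Ly6a and Igtp lie lower in all 3 LPS-treated than in all 3 PBS-treated β1 AT2-KO mice at day 7, while Isg15 and Ifit1 are highest with PBS in mouse 1 and overlap the LPS values.

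Loss of β1 integrin in AT2 cells was then compared within LPS-treated mice. At day 7 no member passed the test in any class. The AT2 and mesenchymal fits had limited power on simulated counts, so the lack of calls there, at either day, does not show that members were unchanged. In AT2 cells 17 members could be tested and 0 were called, beside 0.976% of all 6355 genes higher and 1.16% lower, while 3 members had an unadjusted p under 0.05, beside 13.4% of all genes. In endothelium 0 of 39 were called, beside 1.65% higher and 0.758% lower, with 1 at an unadjusted p under 0.05, beside 14.5% of all genes. In mesenchyme 0 of 28 were called, beside 0.0767% and 0.0384% of 5213 genes, with 4 at an unadjusted p under 0.05, beside 5.47% of all genes. DESeq2 also called 0 members in each class, having given an adjusted p to 9 of the 17, all 39 and all 28. With sex as a covariate, edgeR called 4 members higher in AT2 cells (Ifitm3, Ifi27l2a, Ly6i and Ly6a) and 4 higher in endothelium (Isg15, Ifit1, Ifit3 and Oasl2). The sex term came only from groups with both sexes. In AT2 cells this was mouse 1 against mice 2 and 3 of the day 21 β1 AT2-KO library. In endothelium PBS mouse 1 against PBS mice 2 and 3 was added. Mouse 1 of the day 21 β1 fl/fl library was left out. These calls therefore do not separate genotype from sex at day 7. Without β1 AT2-KO mouse 3, 1 member was lower in endothelium, Ifi27l2a. The members' median log2 fold changes were 0.44, -0.03 and -0.27 in AT2, endothelial and mesenchymal cells, against 0.00, 0.01 and -0.02 over all genes. Of the pathway genes outside the list 0 of 28, 2 of 38 and 0 of 26 were called, the 2 being the class I genes B2m (-0.47) and H2-T23 (-0.55), both lower in endothelium.

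Single members at day 7 showed how wide the spread was. In AT2 cells Ly6e was at 1075, 1233 and 1331 CPM in β1 fl/fl and 1768, 1463 and 1589 CPM in β1 AT2-KO mice, without overlap, and did not pass the test over all genes (log2 0.31, SE 0.14, edgeR adjusted p = 0.309). In endothelium Ifitm3 was at 2268, 2167 and 2223 CPM and 2276, 2355 and 2213 CPM, a difference smaller than the spread between mice (log2 0.01, SE 0.14, edgeR adjusted p = 0.986). In mesenchyme Cxcl10 was at 353, 595 and 87.0 CPM in β1 fl/fl and 4.24, 24.5 and 147 CPM in β1 AT2-KO mice. These ranges overlapped (log2 -2.18, SE 0.82, edgeR adjusted p = 0.702). Mesenchymal Isg15 was at 29.9, 273 and 22.6 CPM and 59.3, 20.1 and 24.5 CPM, and 58 of the 73 UMIs in β1 fl/fl mouse 2 came from 1 cell.

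At day 21 Cxcl10 was the 1 member called in AT2 cells, beside 1.49% of genes higher and 2.55% lower. It was at 0, 5.91 and 1.39 CPM in β1 fl/fl and 31.0, 18.8 and 24.3 CPM in β1 AT2-KO mice. The groups did not overlap (log2 3.37, SE 0.67, edgeR adjusted p = 0.00352), and UMIs fell in 24, 21 and 28 cells of the β1 AT2-KO mice, where 5 cells held 60.9%, 50% and 36.9% of them. The β1 fl/fl side rested on 0, 2 and 1 UMIs, the call was lost without β1 fl/fl mouse 3 (log2 2.96, edgeR adjusted p = 0.0888), and DESeq2 called 0 of the 8 members to which it gave an adjusted p, which Cxcl10 was not among. Without β1 AT2-KO mouse 2, 3 members were called higher, Cxcl10, Ifi27l2a and Ly6i, and with sex as a covariate 4, these and Ifitm3. That covariate rested on β1 AT2-KO mouse 1 against mice 2 and 3, and β1 fl/fl mouse 1 was left out. The members' median log2 fold change was 0.44 against -0.01 over all genes, and 9 of 17 had an unadjusted p under 0.05, beside 17.2% of all genes. Of 28 pathway genes tested outside the list 1 was called, Jak2, a kinase of the interferon-γ receptor, which was higher (0.89 on the log2 scale).

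Ifi27l2a and Isg15 in AT2 cells at day 21 were highest in mouse 1 of the β1 AT2-KO library, the only one there with more Xist than Y-linked UMIs. Ifi27l2a was at 29.4, 0 and 4.16 CPM in β1 fl/fl and 290.0, 2.68 and 45.6 CPM in β1 AT2-KO mice (log2 3.39, SE 1.16, edgeR adjusted p = 0.108). In that mouse 646 UMIs lay in 38 of 266 cells, and 5 cells held 77.7% of them. Isg15 was at 5.35, 2.96 and 1.39 CPM and 71.4, 12.1 and 7.10 CPM and was too low to be tested in AT2 cells, and in mouse 1, 5 cells held 69.8% of its UMIs. Irf1 was more even, at 50.8, 56.2 and 40.3 CPM in β1 fl/fl and 92.0, 79.5 and 75.8 CPM in β1 AT2-KO mice, without overlap, but did not pass the test (log2 0.69, SE 0.22, edgeR adjusted p = 0.0739).

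**Figure D3:**
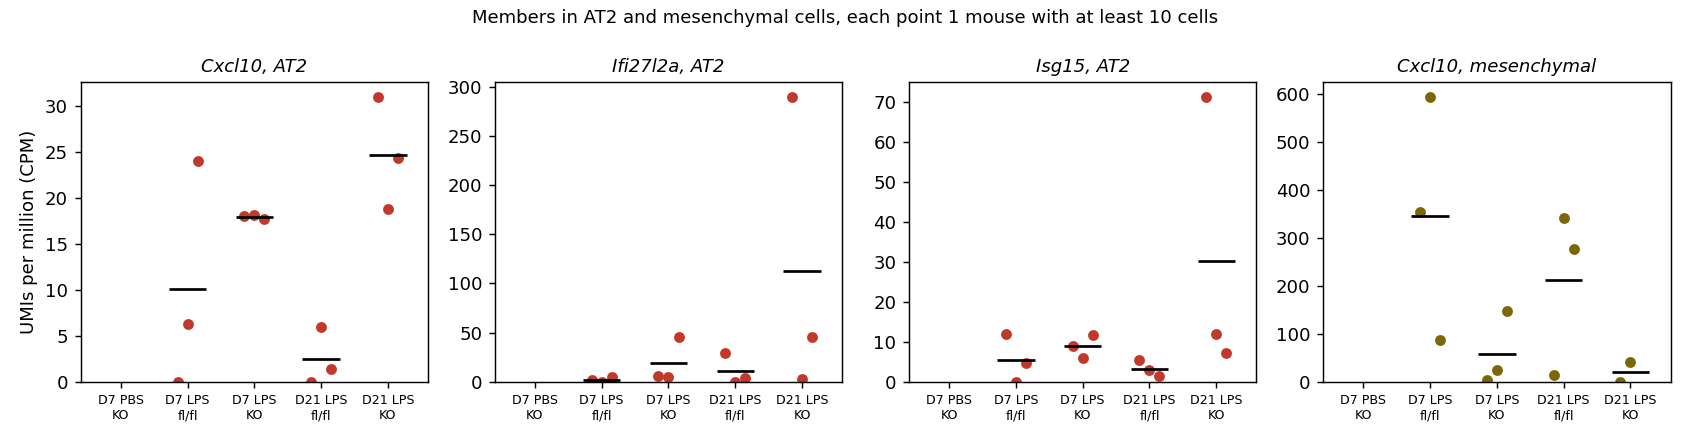
Level of Cxcl10, Ifi27l2a and Isg15 in AT2 cells and of Cxcl10 in mesenchymal cells (CPM, linear axes from 0), with 1 point per mouse with at least 10 cells and a line at the group mean; PBS mice had too few cells. AT2 Cxcl10 is higher in all 3 β1 AT2-KO than in all 3 β1 fl/fl mice at day 21, whereas Ifi27l2a and Isg15 stand out in 1 β1 AT2-KO mouse.

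In endothelium at day 21 no member was called between the genotypes. Of 39, 32 had a log2 fold change below 0 and 14 an unadjusted p under 0.05, beside 11.5% of all genes, and 0 passed the edgeR test, beside 0.256% of genes higher and 0.256% lower, and the smallest adjusted p was 0.107. The median was -0.34 against -0.01 over all genes. Ifitm3 was at 3463, 2116 and 2236 CPM in β1 fl/fl and 1869.5, 1815 and 1754 CPM in β1 AT2-KO mice, without overlap (log2 -0.53, SE 0.15, edgeR adjusted p = 0.107). Gbp2 was at 202, 135 and 98.1 CPM and 86.7, 96.8 and 85.1 CPM, also without overlap (log2 -0.66, SE 0.23, edgeR adjusted p = 0.246). Isg15 was at 388, 152 and 207 CPM and 245, 126 and 91.2 CPM, and Ifit3 at 149, 35.1 and 35.3 CPM and 49.5, 36.3 and 16.2 CPM. Both overlapped and were highest in mouse 1 of the β1 fl/fl library, the hashtag that held both Xist and Y-linked UMIs. DESeq2 called 2 of the 36 members with an adjusted p lower, Iigp1 and Irgm1.

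In mesenchyme at day 21, 0 of 28 members were called, beside 0.0% of genes in either direction, with 5 at an unadjusted p under 0.05, beside 11.1% of all genes, and a median of -0.49 against -0.04 over all genes. DESeq2 called 0 of the 7 members to which it gave an adjusted p. Only 2 β1 AT2-KO mice entered, since mouse 3 had 8 cells. Ifitm3 was at 1817, 2526 and 1990.3 CPM in β1 fl/fl and 1363 and 1478 CPM in those 2 mice, without overlap (log2 -0.66, SE 0.27, edgeR adjusted p = 0.398).

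**Figure D4:**
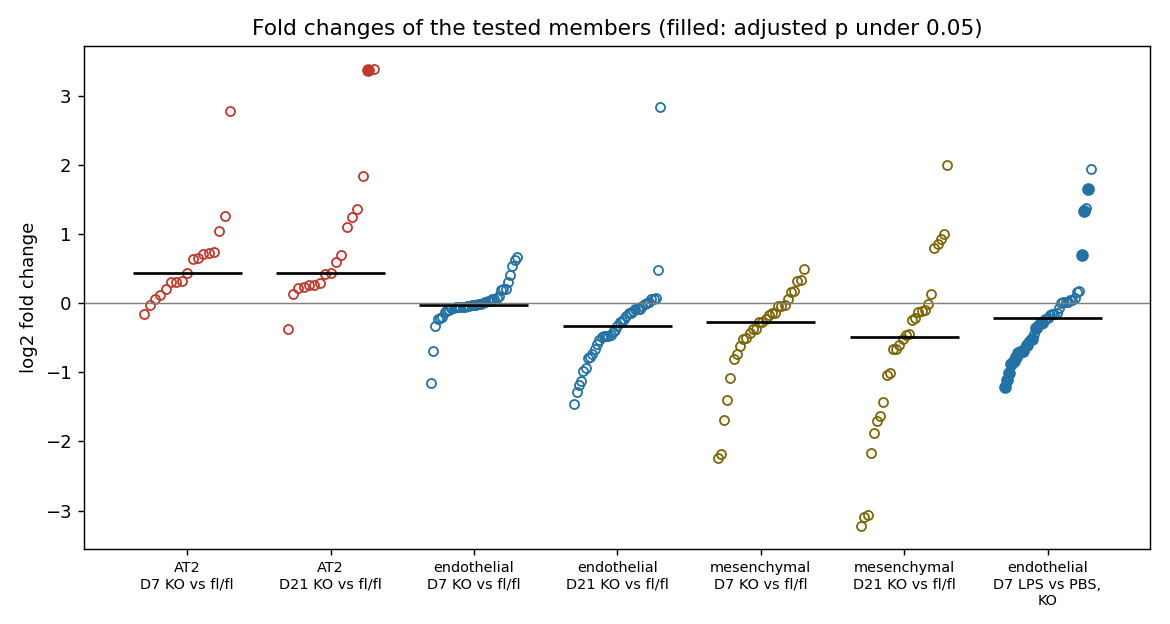
Log2 fold change of each tested member in 7 comparisons, sorted within each, with filled points at an edgeR adjusted p under 0.05 and a line at the median. Called members stand in endothelium after LPS (13 lower, 3 higher) and in AT2 cells at day 21 (1 higher), and the medians for β1 AT2-KO against β1 fl/fl lie above 0 in AT2 cells and below 0 in endothelium and mesenchyme at both days.

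Whether the genotype difference itself differed between classes was tested as an interaction. For want of UMIs 4 and 1 of the 39 members could not be tested against AT2 cells at day 7 and day 21, and 1 and 4 against mesenchyme. In the comparisons with 0 calls below, 5 members (AT2 cells, day 7) and 2 (mesenchyme, day 21) had an unadjusted p under 0.05, beside 7.74% and 7.48% of all genes, and DESeq2 called 0 of the 31 and 9 members to which it gave an adjusted p. Between AT2 cells and endothelium 0 members were called at day 7, beside 0.218% of genes in either direction, and 1 at day 21, beside 0.521%. That member was Irf1 (log2 1.34, SE 0.33, edgeR adjusted p = 0.0464), whose fold change was 0.69 in AT2 cells and -0.60 in endothelium, where it was at 892, 666 and 587 CPM in β1 fl/fl and 461, 513 and 444 CPM in β1 AT2-KO mice. This call was lost with DESeq2 size factors (log2 1.22, edgeR adjusted p = 0.115), with DESeq2 (1.24, adjusted p = 0.0918) and without any 1 of the 6 mice (1.20 to 1.47, edgeR adjusted p = 0.0565 to 0.227). Between mesenchyme and endothelium 1 member was called at day 7, beside 0.0758% of genes, and 0 at day 21, beside 0.00947%. It was Cxcl10 (log2 -2.74, SE 0.47, edgeR adjusted p = 0.00332), which in endothelium was at 38.1, 25.9 and 16.7 CPM in β1 fl/fl and 14.5, 26.3 and 80.1 CPM in β1 AT2-KO mice, and DESeq2 did not call it. Few cells carried its UMIs: in mesenchyme 5 cells held 100%, 96.9% and 70.1% of them in the β1 fl/fl mice. Mesenchyme of β1 AT2-KO mouse 1 held 1 UMI in 1 cell and that of mouse 2 held 11 UMIs in 4 cells. In mouse 3 of that library 5 cells held 66.1% of 180 UMIs. In endothelium 1 cell held 83 of the 289 UMIs of β1 AT2-KO mouse 3. The Cxcl10 call was lost without β1 fl/fl mouse 2 (log2 -2.11, edgeR adjusted p = 0.162). The count of lower members there was 2 without β1 fl/fl mouse 1, 3 without β1 fl/fl mouse 3 and 2 without β1 AT2-KO mouse 3, when 1 was also higher. The genotype difference at day 21 minus that at day 7 was called for 0 members in AT2 cells (0.629% of genes), endothelium (0.988%) and mesenchyme (0.0192%), with 0, 7 and 2 members at an unadjusted p under 0.05, beside 10.8%, 11.9% and 9.86% of all genes. DESeq2 called 0, 2 and 0 of the 6, 34 and 5 members to which it gave an adjusted p, namely Iigp1 and Irgm1 as lower in endothelium. With edgeR 2 were lower there without mouse 1 of the day 7 β1 fl/fl library and 1 without mouse 3 of the day 21 β1 fl/fl library.

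Summed over the list and over cells, the members give the scale of these differences, described without a test. In AT2 cells the 40 members summed to 1996 ± 258 CPM (SD, n = 3) in β1 fl/fl and 2764 ± 222 CPM (SD, n = 3) in β1 AT2-KO mice at day 7, and to 2024 ± 267 CPM (SD, n = 3) and 2881 ± 643 CPM (SD, n = 3) at day 21. The last of these held 3624, 2501 and 2519 CPM in mice 1, 2 and 3. In endothelium the members summed to 19609 ± 1391 CPM (SD, n = 3) with PBS, and after LPS to 16194 ± 52.2 CPM (SD, n = 3) and 15503 ± 943 CPM (SD, n = 3) at day 7 and 18220.2 ± 2542 CPM (SD, n = 3) and 16125 ± 631 CPM (SD, n = 3) at day 21. Ifitm1, Ifitm2, Ifitm3, Ly6a and Ly6e made up most of each sum. Without them the means in the same order were 577, 873, 520 and 992 CPM in AT2 cells. In endothelium they were 4550, 3573, 3698, 4980 and 3813 CPM. The share of endothelial cells with at least 3 UMIs over 12 genes of the type I response, after thinning each cell to 1500 UMIs, was 16.3% ± 7.89 (SD, n = 3) with PBS, 10.1% ± 1.49 and 10.5% ± 1.69 at day 7 in β1 fl/fl and β1 AT2-KO mice, and 23.5% ± 6.75 and 14.4% ± 7.20 at day 21 (SD, n = 3 for each). Cells under 1500 UMIs were left out, 202 to 504 per mouse at day 7 and 38 to 80 at day 21. The same share was at most 0.376% on average in AT2 cells of any group.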

How the data were processed

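Lung cells under 15 hashtags, each taken as 1 mouse, were profiled by 10x 5′ single-cell RNA sequencing. The authors deposited UMI counts per gene and barcode with hashtag counts, made per the submitters' processing notes with Cell Ranger 3.1 on mm10 (Seurat 4.1.0 is also listed). Cells needed 700 genes or more and a mitochondrial share of 0.1% to 15%, and doublets were removed only through several hashtags. AT2 cells had Sftpc at 5% of UMIs or more, at least 1 Epcam UMI and no Cdh5, Pecam1 or Col1a2. Endothelial cells had at least 2 Cdh5 and Pecam1 UMIs, and mesenchymal cells at least 2 Col1a2 UMIs, each without the others' genes. UMIs were summed per mouse and class where at least 10 cells with 1 hashtag were present, and tested with edgeR 4.0.16 (R 4.3.3; quasi-likelihood test, TMM, filterByExpr, Benjamini-Hochberg over all genes), with DESeq2 1.42.0 as an alternative. The procedure was tested on simulated counts for the direction of calls, the share of false calls and the centring of estimates. These criteria were set after a first run in which the mesenchymal fit missed a required number of recovered genes. Recovery was then recorded but not required. The AT2 and mesenchymal fits had limited power for a log2 change of 1, so 0 calls there do not show that members were unchanged. Thinning, summaries and plots used python 3.11.15 (numpy 2.4.6, pandas 2.3.3, matplotlib 3.10.9). Kept cells held 8360954 to 29128331 UMIs per library.

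The members, gene lists and tests were chosen with earlier results of these data known. Named in every mouse were Isg15, Ifit3, Irf7, Ly6e, Ly6a, Ifitm3, Gbp2 and Psmb8 and, in each comparison, up to 6 members called in each direction with the largest change. Genes outside this rule, such as Irf1 and Ifi27l2a in AT2 cells, were named after their values were seen. Alternatives were other size factors, DESeq2, no filter on low counts, stricter gates, leaving out cells with an immune UMI, every mouse with a cell, leaving out each mouse and, added after seeing the data, sex as a covariate and leaving out each mouse for the class comparisons, the interactions and the difference between days.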

Additional observations from a re-analysis of the deposited data

Results flagged for a closer look

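Both interactions between cell class and genotype stand apart because the genotype difference itself differed between classes in the edgeR test. Irf1 had a difference of 1.34 on the log2 scale (SE 0.33, adjusted p = 0.0464) between AT2 cells and endothelium at day 21. Its estimate was higher in β1 AT2-KO AT2 cells and lower in β1 AT2-KO endothelium, but Irf1 was called in neither class alone. Cxcl10 had a difference of -2.74 (SE 0.47, adjusted p = 0.00332) between mesenchyme and endothelium at day 7, where the 3 β1 fl/fl mice were Xist-positive and the 3 β1 AT2-KO mice were not. The Irf1 call was lost without any 1 of the 6 mice, with DESeq2 and with DESeq2 size factors. The Cxcl10 call was lost with DESeq2 and without β1 fl/fl mouse 2 (-2.11, edgeR adjusted p = 0.162). In mesenchyme 1 cell held 53 of the 71 Cxcl10 UMIs of β1 fl/fl mouse 1, and 5 cells held 96.9% of the 159 of mouse 2. The mesenchyme of β1 AT2-KO mice 1 and 2 held only 1 and 11 Cxcl10 UMIs. The part of sex, library and RNA from other cells in either value was not tested.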

How the results depend on the processing

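No called value changed sign. For LPS against PBS in AT2 and mesenchymal cells no setting other than taking in every mouse was run, because the PBS mice had fewer than 10 cells. No pairing of mice between groups was possible because the mice are nested in libraries and the labels give them no shared numbers. With no filter on low counts, higher members numbered 3 (AT2, day 7), 6 (AT2, day 21) and 5 (endothelium, LPS against PBS), and lower members 1 and 8 (endothelium, day 7 and day 21), 4 (endothelium, day 21 minus day 7), 5, 1 and 1 (mesenchyme, day 7, day 21 and their difference). The interactions then gave 1 and 6 higher (AT2 against endothelium, day 7 and day 21) and 1 higher and 5 lower (mesenchyme against endothelium, day 7). With DESeq2, 0 were higher in AT2 cells at day 21 (Cxcl10 had no adjusted p there), 8 were lower in endothelium after LPS, 2 lower at day 21 and 2 in the difference between days, and the interactions gave 0 at day 21 for AT2 cells and 0 lower at day 7 for mesenchyme. DESeq2 size factors gave 0 and 2 there and moved the median of all genes in the first by -0.11. Stricter gates gave 1 lower in endothelium at day 21. With sex as a covariate, 4 were higher in AT2 cells at day 7, 4 in AT2 cells at day 21 and 4 in endothelium at day 7 (Ifit1, Ifit3, Isg15 and Oasl2), and 8 were lower after LPS. In AT2 cells the sex term rested on mouse 1 against mice 2 and 3 of the day 21 β1 AT2-KO library. In endothelium it rested on those and on PBS mouse 1 against PBS mice 2 and 3. Leaving out each mouse gave 0 to 3 higher in AT2 cells at day 21, 0 to 1 lower in endothelium at day 7, 0 to 3 higher and 7 to 16 lower after LPS, 0 to 2 lower in the endothelial difference between days, and, in the interactions, 0 higher for AT2 cells at day 21 and 0 to 1 higher and 0 to 3 lower for mesenchyme at day 7. Shares over all genes are not given for these alternative settings, so their counts cannot be read against a background. The causes were not tested.

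Without Ifitm1, Ifitm2, Ifitm3, Ly6a and Ly6e, the log2 ratio of summed levels between genotypes was 0.93 in AT2 cells at day 21 (0.51 with them), 0.049 and -0.39 in endothelium at day 7 and day 21 (-0.06 and -0.18) and -0.86 in mesenchyme at day 21 (-0.56, or -0.28 over all cells of the library). Shares of cells with type I response UMIs scaled with depth: unthinned they were 4.95%, 1.54% and 3.10% in AT2 cells (day 21 β1 AT2-KO, day 21 β1 fl/fl, day 7 β1 AT2-KO), 34.7%, 20.9%, 22.7%, 21.2% and 26.6% in endothelium (day 21 β1 fl/fl and β1 AT2-KO, day 7 β1 AT2-KO, day 7 β1 fl/fl, PBS) and 4.17%, 21.0%, 15.5% and 13.9% in mesenchyme (day 21 β1 AT2-KO and β1 fl/fl, day 7 β1 AT2-KO and β1 fl/fl), and thinned to 1000 UMIs they were 15.7%, 5.59% and 4.94% in endothelium (day 21 β1 fl/fl, day 7 β1 AT2-KO, day 7 β1 fl/fl). Of the 40 members 17 passed the filter on low counts in AT2 cells, 39 in endothelium and 28 in mesenchyme.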
